A study of Mus musculus with 6 samples.

Results

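The genes of the proteasome were examined in mouse regulatory T (Treg) cells differentiated with or without sorafenib (Sora), a multikinase inhibitor used against liver cancer. Members were all rows of the count table whose symbol starts with Psma, Psmb, Psmc, Psmd, Psme, Psmf or Psmg followed by a number, which gave 50 of 22939 genes. The study cultured naive CD4 T cells from Foxp3 GFP reporter mice of the C57BL/6J background, in which GFP sits in the Foxp3 locus, under stimulation of CD3 and CD28 with TGF-β1 and with antibodies that block IFN-γ and IL4. GFP+ cells were sorted, and RNA was sequenced from 3 libraries of control cells (ctrl-Treg) and 3 of cells given Sora (Sora-Treg). Both groups share the reporter allele, the stimulation and the antibodies, and Sora is the named difference between them. The mice of the study were female, and the labels state neither the dose of Sora nor the time in culture, nor the age of the mice these cells came from. No source used here says whether the 3 libraries of a group are separate cultures or mice, so p-values measure only the spread between these libraries, which may be technical.

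The proteasome is the large protease that degrades proteins tagged with ubiquitin. Its barrel, the 20S core, has outer rings of alpha subunits and inner rings of beta subunits, of which Psmb5, Psmb6 and Psmb7 carry the active sites, and it is capped by the 19S regulator, whose ATPases unfold substrates and feed them in. In lymphocytes and in cells exposed to IFN-γ, the active-site subunits can be replaced by Psmb8, Psmb9 and Psmb10, and the core can be capped by the PA28 activator of Psme1 and Psme2, which together make the immunoproteasome that shapes peptides for MHC class I.

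Of the 50 members, 41 were subunits, activators or assembly factors of the standard proteasome and 5 were the immunoproteasome genes Psmb8, Psmb9, Psmb10, Psme1 and Psme2. A further 3 rows that matched by symbol were set aside, Psmc3ip (a factor of meiotic recombination), Psme3ip1 (a partner of Psme3) and Psme2b (a second gene like Psme2). The last was Psma8, an alpha subunit of the testis, at 7, 6 and 3 counts without Sora and 18, 6 and 9 with it. It failed the filter on low counts, so 49 members were tested among 13463 genes. Psmb11, the beta subunit of the thymic cortex, had no row under that symbol. Members were abundant, with a median log2 CPM (counts scaled to a common library total) of 6.39 against 4.53 over all tested genes.

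Total counts per library ranged from 30727686 to 37717324, and 3 counts corresponded to 0.0795 to 0.0976 CPM. T cell and Treg markers (7 genes) summed to 3797 to 3855 CPM in ctrl-Treg libraries against 6633 to 6764 CPM with Sora, with most of the rise in Il2ra (1934 to 3795 CPM) and Ctla4 (383 to 1108 CPM), while Foxp3 (259 to 272 CPM) and Cd4 (679 to 709 CPM) moved little. Myeloid markers (7 genes) summed to 93.5, 93.0 and 24.9 CPM in ctrl-Treg libraries against 22.3, 42.9 and 20.8 CPM with Sora. Control replicates 1 and 2 each had 2-fold or more of the level of control replicate 3 in 6 of the 7. B cell markers (4 genes) summed to 1.53 to 2.39 CPM against 0.251 to 0.365 CPM, CD8 T cell markers (2 genes) to 13.2 to 15.1 CPM against 12.6 to 13.8 CPM, and class II markers (3 genes) to 124 to 131 CPM against 202 to 212 CPM. In the last list H2-Ab1 was higher (56.0 to 188 CPM), and Cd74 (69.5 to 17.6 CPM) and H2-Aa (2.35 to 0.527 CPM) were lower. None of these markers was at 0 throughout, and their part in the results was not tested. Results that moved without both of those control replicates are also given without them.

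To ask how proteasome transcripts responded to Sora, the groups were compared with the quasi-likelihood test of edgeR over all 13463 genes. Proteasome genes were mostly lower in Sora-Treg cells, and the shifts were small. Of the 49 tested members, 31 were lower at an adjusted p under 0.05, 1 was higher and 17 were not called. After TMM scaling, which compares each gene with the bulk of genes, the same rule over all tested genes called 29.9% lower and 29.7% higher. No member was a differentially expressed gene (DEG), which here asks for a log2 fold change beyond 1 as well and was met by 11.3% of all tested genes. In 36 members all Sora-Treg libraries lay below all ctrl-Treg libraries, a pattern that 32.0% of all tested genes had, and in 1 member they lay above, as in 31.8% of all tested genes. With the symbol matches set aside, 46 members remained, of which 28 were lower and 1 higher, 42 had a negative log2 fold change, and the median was -0.16. The median over all tested genes was -0.0035, and 34.2% of them lay below the median of the 41 standard members. Members were more abundant than most tested genes, and the shares over all genes were not matched for abundance. Where values of single libraries are given, control replicates 1 to 3 come first and Sora replicates 1 to 3 follow, in CPM after TMM scaling.

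The decrease was also visible in sums. All 50 members took 0.495%, 0.496% and 0.494% of the counts without Sora and 0.414%, 0.407% and 0.414% with Sora. After TMM scaling the sum went from 4757 ± 18.4 CPM to 4285 ± 38.5 CPM with Sora (SD, n = 3), and the groups did not overlap on either scale. In bulk RNA, fewer cells of a type and less of the RNA per cell cannot be told apart. TMM scaling sets the bulk of genes to no change, and scaling by library totals instead moved the median of all genes by -0.12. Under that scaling 46 members were lower and 0 higher, where 41.7% of all genes tested were lower and 21.3% higher. The median of the 41 standard members minus that of all genes was -0.16 with TMM and lay between -0.18 and -0.15 in 17 alternatives. It was -0.26 in 1 other, a fit of FPKM values without a filter on low levels.

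**Figure D1:**
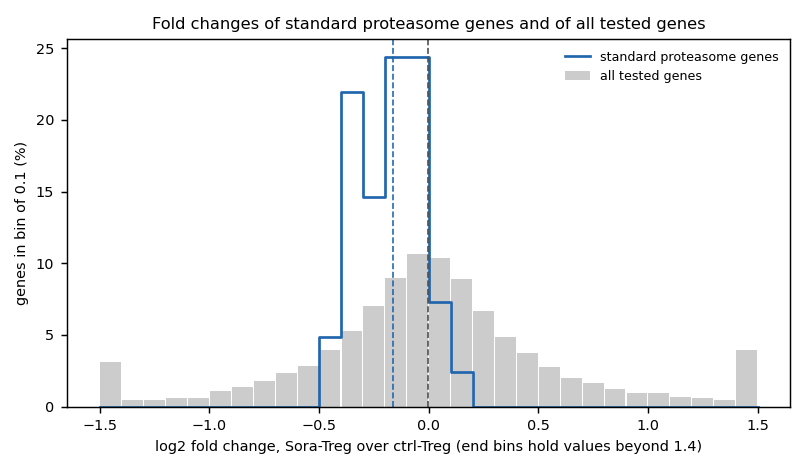
Share of genes (%) in each bin of 0.1 of the log2 fold change, Sora-Treg over ctrl-Treg, for 41 standard proteasome genes (blue line) and 13463 tested genes (grey bars), with dashed lines at the medians of -0.16 and -0.0035. Proteasome genes fill a narrow range from -0.50 to 0.14, mostly below 0, while the end bins of all genes hold values beyond 1.4.

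Within the 20S core, 6 of the 7 alpha subunits, which form the gate of the barrel, were lower, and their median log2 fold change was -0.24. Psma5 fell most, from 62.4, 60.2 and 57.6 CPM in control libraries to 45.4, 44.3 and 47.3 CPM with Sora. The groups lay far apart compared with their spread, and the level was 24.0% lower (log2 fold change -0.40 ± 0.047, SE, adjusted p = 1.42e-07). Psma2 was the exception, with 119, 118 and 115 CPM against 118, 109 and 114 CPM. Its groups overlapped, and the log2 fold change of -0.049 ± 0.037 (SE) was not called (adjusted p = 0.273). The Psma2 annotation also overlaps AW209491 on the same strand, a gene at 7.68% of its level. Psma4 was lower (-0.11 ± 0.035, SE, adjusted p = 0.00855) but not called without control replicates 1 and 2 (-0.093, adjusted p = 0.199). Under library totals all 7 alpha subunits were lower.

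Beta subunits without an active site split. Psmb1 was the single member that was higher, with 189.5, 191 and 181 CPM in control libraries against 212, 202 and 204 CPM with Sora. All Sora-Treg libraries lay above the ctrl-Treg libraries, and the log2 fold change was 0.14 ± 0.032 (SE, adjusted p = 0.000878). With library totals it was 0.022 and no longer called (adjusted p = 0.579), so this call holds only relative to the bulk of genes. Psmb3 stood at the other end, falling from 87.6, 91.3 and 90.0 CPM to 71.9, 71.2 and 71.8 CPM with a clear gap between groups (log2 fold change -0.32 ± 0.038, SE, adjusted p = 1.35e-07). Psmb2 and Psmb4 were lower by less, with log2 fold changes of -0.16 ± 0.039 and -0.16 ± 0.037 (SE, adjusted p = 0.00115 and 0.000731). Without control replicates 1 and 2 neither of these last calls was kept (-0.15 and -0.082, adjusted p = 0.0568 and 0.243).

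Of the 3 standard active-site subunits, 1 was lower and the others were not called. Psmb7, which carries the trypsin-like site, had 96.3, 95.1 and 94.9 CPM in control libraries against 72.9, 75.3 and 75.3 CPM with Sora. No library of either group came near the other, and the level was 21.9% lower (log2 fold change -0.36 ± 0.037, SE, adjusted p = 2.09e-08). Psmb7 overlaps Nek6, on the opposite strand and at 40.6% of its level, which changed by -0.66 on the log2 scale. Since the treatment of strand in counting is not stated, the part of Nek6 reads in the Psmb7 count was not tested.

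For Psmb5, the chymotrypsin-like site and the target of clinical proteasome inhibitors, the libraries had 61.2, 66.0 and 63.3 CPM against 62.1, 56.1 and 58.7 CPM. Psmb6, the caspase-like site, had 76.2, 79.5 and 74.3 CPM against 76.8, 68.4 and 70.8 CPM. In both, Sora replicate 1 reached into the range of the controls while the other Sora-Treg libraries lay below it. Their log2 fold changes of -0.11 ± 0.046 and -0.092 ± 0.045 (SE) were not called (adjusted p = 0.0511 and 0.0848). Psmb5 was called without control replicate 1 (-0.13, adjusted p = 0.0410) or without Sora replicate 1 (-0.14, adjusted p = 0.0146), and Psmb6 without Sora replicate 1 (-0.14, adjusted p = 0.0112). Both were lower with library totals (-0.22 and -0.21).

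Subunits of the core are present once in each ring, yet their transcript levels per length differed. In FPKM, a level scaled for gene length and library total, the 14 standard core subunits ran from 21.0 (Psma3) to 188 (Psmb1) in ctrl-Treg cells and from 16.4 to 191 in Sora-Treg cells. The low end depends on gene length, since the FPKM values imply 3325 bases for Psma3 and 731 to 1591 for the other core subunits. In mean CPM of ctrl-Treg cells Psma3 (67.0) lay above Psma5 (60.1) and Psmb5 (63.5). The coefficient of variation over the 14 was 44.5%, 43.4% and 42.9% without Sora and 53.5%, 52.3% and 52.0% with Sora. This coefficient was thus larger in every Sora-Treg library than in any ctrl-Treg library. Psmb1, the highest of the 14, was the only core subunit whose mean FPKM did not fall. Its part in the larger coefficient was not tested, nor was that of the length used for Psma3. Over the 17 subunits of the 19S regulator that match the symbol rule, the coefficient was 29.1% to 29.6% in ctrl-Treg cells. In Sora-Treg cells it was 33.1% to 35.2%.

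The 19S base holds a ring of 6 ATPases, of which 5 were lower. Psmc5 was lowest, going from 91.2, 86.3 and 91.5 CPM to 68.2, 72.2 and 72.6 CPM with a wide gap between the groups (log2 fold change -0.34 ± 0.041, SE, adjusted p = 2.26e-07). Psmc6 had 126, 125 and 124 CPM in control libraries against 122, 127 and 121 CPM with Sora. Its groups overlapped and its log2 fold change was -0.021 ± 0.034 (SE, adjusted p = 0.61). Psmc1, Psmc2, Psmc3 and Psmc4 lay between them, at -0.16, -0.30, -0.15 and -0.15, all called. Psmc3 overlaps Slc39a13, on the opposite strand and at 15.3% of its level.

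Of the 11 non-ATPase subunits of the 19S regulator that match the symbol rule, 5 were lower and 6 were not called. They include ubiquitin receptors and the scaffold, and their median log2 fold change was -0.082. Adrm1 and Sem1 lie outside the rule and are given below. Psmd14, the deubiquitinase that removes the ubiquitin chain from a substrate, fell from 94.1, 97.1 and 91.3 CPM to 76.6, 74.3 and 70.1 CPM. Its libraries did not overlap between groups, and the level was 21.9% lower (log2 fold change -0.36 ± 0.041, SE, adjusted p = 1.15e-07). Psmd1, the large scaffold subunit, and Psmd7, the partner of Psmd14, changed by -0.33 ± 0.038 and -0.30 ± 0.038 (SE, adjusted p = 1.09e-07 and 4.86e-07). Psmd11 and Psmd13 were lower by less (-0.13 and -0.18), and Psmd11 was not called without control replicates 1 and 2 (adjusted p = 0.0563). Psmd13 overlaps Sirt3 on the opposite strand.

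Psmd4, a ubiquitin receptor of the regulator, had 113, 115 and 113 CPM in control libraries against 120.2, 112 and 118 CPM with Sora. Psmd8, a subunit of the lid, had 148, 145 and 152 CPM against 154, 147 and 151 CPM. Psmd2, the other large scaffold subunit, had 261, 264 and 265 CPM against 267, 245 and 261 CPM. All 3 overlapped between the groups, and their log2 fold changes of 0.036 ± 0.036, 0.019 ± 0.033 and -0.033 ± 0.032 (SE, adjusted p = 0.4, 0.638 and 0.387) were not called. The small positive values of Psmd4 and Psmd8 have no fixed sign, since both turned negative with upper quartile scaling or library totals. Psmd3, Psmd6 and Psmd12 had negative log2 fold changes of -0.079 ± 0.036, -0.071 ± 0.041 and -0.082 ± 0.039 (SE) with adjusted p of 0.0663, 0.145 and 0.0764. In these 3 the groups did not overlap, although the distances were short, and Psmd3 was called without Sora replicate 3 (-0.11, adjusted p = 0.0350).

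**Figure D2:**
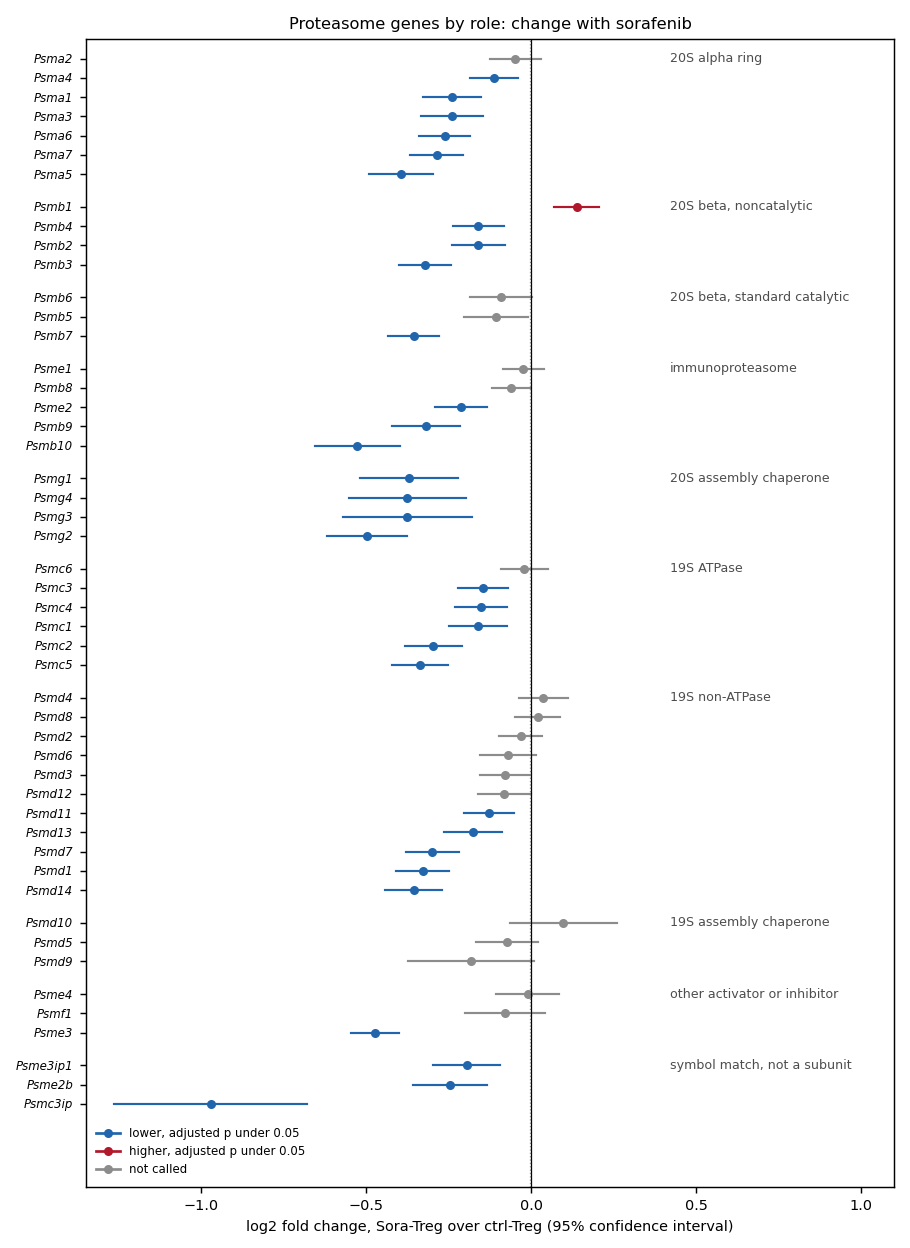
Log2 fold change, Sora-Treg over ctrl-Treg (points), with 95% confidence interval (bars), for the 49 tested members by role, from edgeR on 3 libraries a group. Blue marks genes lower and red the gene higher at an adjusted p under 0.05, grey marks genes not called, and a dotted line at the median of all genes (-0.0035) almost hides behind the line at 0. The 4 Psmg chaperones of the 20S core lie at or below -0.37, while the 3 chaperones of the 19S base straddle 0.

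Assembly factors were counted by the piece of the particle they build. All 4 chaperones of the 20S core that match the symbol rule, Psmg1 to Psmg4, were lower, with a median log2 fold change of -0.38. Pomp, a maturation factor of the core outside that rule, was not called (log2 fold change -0.015 ± 0.044, SE, adjusted p = 0.793). Psmg2, which works as a pair with Psmg1 on the alpha ring, fell from 33.3, 33.8 and 33.6 CPM to 23.9, 23.0 and 24.4 CPM. Its level was 29.2% lower (log2 fold change -0.50 ± 0.058, SE, adjusted p = 1.36e-07), the lowest value of the 41 standard members in this fit. Psmg1 had 27.3, 30.3 and 30.8 CPM against 21.9, 21.3 and 24.9 CPM (log2 fold change -0.37 ± 0.072, SE, adjusted p = 0.000113). Psmg3 and Psmg4, a second pair, changed by -0.38 ± 0.094 and -0.38 ± 0.086 (SE, adjusted p = 0.00155 and 0.000645). In none of the 4 did the groups overlap, and all calls were kept with any 1 library left out.

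None of the 3 chaperones of the 19S base was called. Psmd5 had 50.8, 48.7 and 49.5 CPM in control libraries against 46.8, 47.2 and 47.8 CPM with Sora, groups that lay apart by a narrow margin (log2 fold change -0.073 ± 0.045, SE, adjusted p = 0.171). Psmd9 had 16.0, 15.9 and 14.9 CPM against 14.4, 15.1 and 11.7 CPM. Psmd10, also known as gankyrin, had 23.5, 21.1 and 24.7 CPM against 25.9, 21.8 and 26.4 CPM. Both overlapped between groups, at log2 fold changes of -0.18 ± 0.092 and 0.097 ± 0.078 (SE, adjusted p = 0.0907 and 0.298). Both were called, in opposite directions, when Sora replicate 2 was left out, Psmd9 lower (-0.26, adjusted p = 0.0257) and Psmd10 higher (0.18, adjusted p = 0.0414). With library totals Psmd10 had a negative log2 fold change (-0.018), and Psmd5 and Psmd9 were called lower (-0.19 and -0.30, adjusted p = 0.000952 and 0.00677), as they were with upper quartile scaling (adjusted p = 0.0385 and 0.0419). Whether the chaperones of the core differ from those of the base was not tested.

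Among activators and inhibitors outside the immunoproteasome, Psme3 was called. It encodes PA28 gamma, a nuclear activator of the core, and went from 206, 211 and 221 CPM to 150.1, 159 and 151 CPM. The gap between the groups was wider than the range within either, and the level was 28.0% lower (log2 fold change -0.47 ± 0.034, SE, adjusted p = 4.36e-11). Leaving out any 1 library kept it between -0.50 and -0.45. Psme4, which encodes the activator PA200, had 99.2, 104 and 103 CPM against 95.4, 111 and 98.2 CPM. Psmf1, which encodes the core-binding protein PI31, had 32.1, 33.0 and 31.9 CPM against 30.2, 29.1 and 32.4 CPM. Groups overlapped in both genes, and neither was called (log2 fold change -0.011 ± 0.046 and -0.080 ± 0.058, SE, adjusted p = 0.854 and 0.25).

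A blocking antibody against IFN-γ, the main inducer of the immunoproteasome genes, was present in both groups. These genes were kept apart by the rule that set the members. They split into 3 genes that were lower and 2 that were not called. Psmb10 had the largest change of the 46 subunits and factors in this fit, from 30.6, 31.3 and 29.4 CPM in control libraries to 21.0, 21.0 and 21.3 CPM with Sora. The Sora-Treg libraries were close to each other and far below the controls, a level 30.6% lower (log2 fold change -0.53 ± 0.062, SE, adjusted p = 1.39e-07). Psmb9 fell from 88.3, 95.7 and 80.4 CPM to 72.7, 70.0 and 69.2 CPM, 19.9% lower (log2 fold change -0.32 ± 0.050, SE, adjusted p = 7.44e-06). Its ctrl-Treg libraries were spread more widely than its Sora-Treg libraries, and the higher ones were replicates 1 and 2, those with more myeloid RNA. Without both, the log2 fold change was -0.19 and still called (adjusted p = 0.0215), under a fit that assumes the lone control library to vary like the others. Psmb10 without both was at -0.48 (adjusted p = 0.000265).

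Psmb9 lies head to head with Tap1, the peptide transporter of the MHC class I pathway. The annotations overlap by 212 bases on opposite strands, and Tap1 had 312% of the level of Psmb9 and was itself lower (log2 fold change -0.29 ± 0.031, SE, adjusted p = 2.07e-08). How many reads of one were counted for the other is not known, and the part of this in the change of Psmb9 was not tested. Psme2, a subunit of the PA28 activator, had 115, 111 and 114 CPM against 93.8, 96.7 and 103 CPM without overlap (log2 fold change -0.21 ± 0.038, SE, adjusted p = 5.16e-05). Its reads cannot be separated with certainty from those of Psme2b, which had 36.0 CPM over all libraries and a log2 fold change of -0.25 ± 0.054 (SE, adjusted p = 0.000409).

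Psmb8 was the most abundant of the 5 per length, at 279 ± 5.56 FPKM in controls against 247 ± 2.84 FPKM with Sora (SD, n = 3). In CPM it had 324, 337 and 324 against 318, 313 and 312, groups that lay apart by less than the range of the control libraries. The log2 fold change of -0.062 ± 0.028 (SE, 95% confidence interval -0.12 to -0.0045) missed the threshold after adjustment (adjusted p = 0.0585). It passed under robust fitting (-0.062, adjusted p = 0.0453), with a looser filter on counts, with upper quartile scaling, with library totals and in the 3 fits of FPKM values, so this call rests on the processing. Psme1, the partner of Psme2, had 233, 235 and 245 CPM against 234, 234 and 233 CPM, with overlap and a log2 fold change of -0.024 ± 0.030 (SE, adjusted p = 0.497). It was called with library totals (-0.14).

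**Figure D3:**
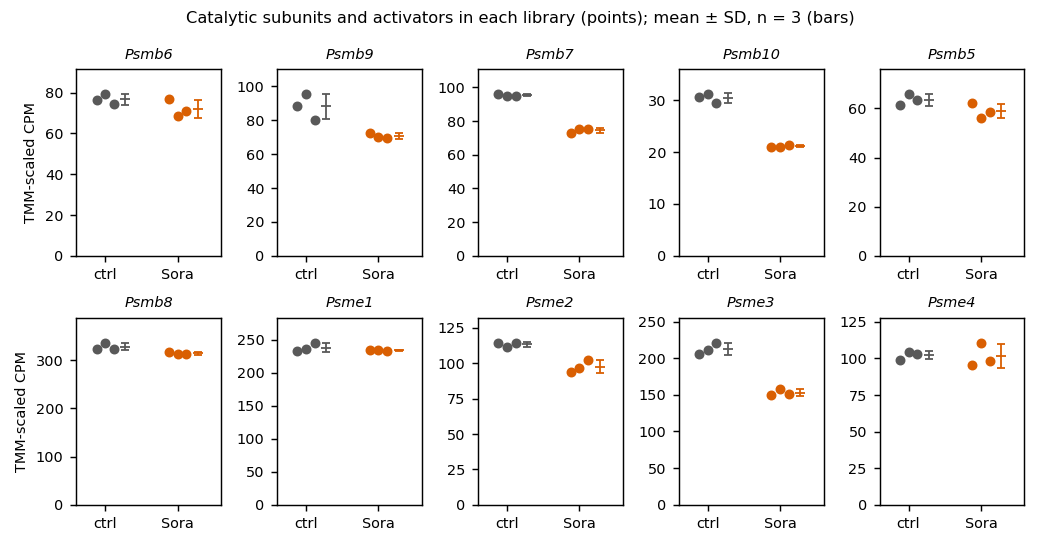
TMM-scaled CPM of active-site subunits and activators in each of 3 ctrl-Treg (grey) and 3 Sora-Treg (orange) libraries, with mean ± SD beside the points and each axis starting at 0. Groups are clearly apart for Psmb7, Psmb10, Psme3 and Psme2, and overlap for Psmb5, Psmb6, Psme1 and Psme4.

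Each immunoproteasome subunit was then set against the standard subunit it replaces, as a ratio of FPKM values, which does not depend on the scaling of libraries. The ratio of Psmb8 to Psmb5 was 3.77, 3.63 and 3.64 in ctrl-Treg cells and 3.65, 3.97 and 3.79 in Sora-Treg cells. These overlapped, with a difference of 0.046 ± 0.040 on the log2 scale (SE, two-sided exact permutation p = 0.2, adjusted over 3 ratios 0.2). Psmb9 to Psmb6 went from 1.17, 1.22 and 1.09 to 0.957, 1.04 and 0.989, so that the immunoproteasome form was the larger in all ctrl-Treg libraries and in 1 Sora-Treg library. The difference was -0.22 ± 0.056 (SE, two-sided exact permutation p = 0.1, adjusted 0.15). Psmb10 to Psmb7 went from 0.265, 0.274 and 0.258 to 0.240, 0.232 and 0.236, a difference of -0.17 ± 0.028 (SE, two-sided exact permutation p = 0.1, adjusted 0.15).

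The latter 2 ratios were lower in every Sora-Treg library than in any ctrl-Treg library, and 0.1 is the smallest p that 3 libraries against 3 can give, so no ratio could reach the threshold by this test. Without control replicates 1 and 2 the differences were -0.14 for Psmb9 to Psmb6 and -0.13 for Psmb10 to Psmb7, with no test since 1 control library remains. Per length, the immunoproteasome form made up 78.6% ± 0.357 of the Psmb8 and Psmb5 pair in ctrl-Treg cells and 21.0% ± 0.493 of the Psmb10 and Psmb7 pair (SD, n = 3).

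**Figure D4:**
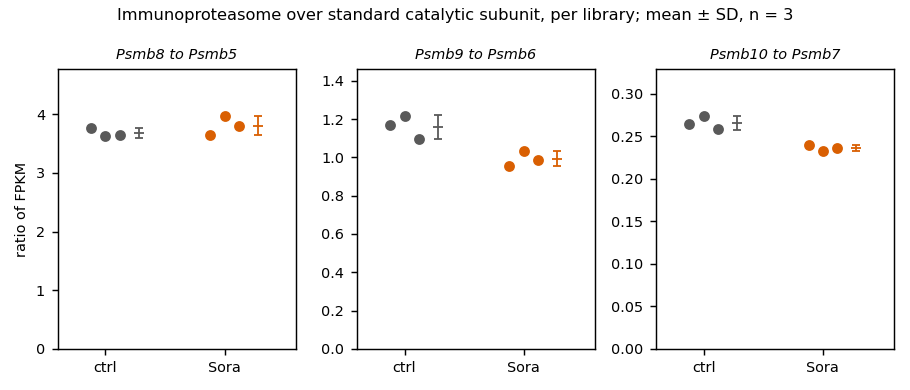
Ratio of FPKM of each immunoproteasome subunit to the standard subunit it replaces, in 3 ctrl-Treg (grey) and 3 Sora-Treg (orange) libraries, with mean ± SD and axes starting at 0. Psmb8 to Psmb5 overlaps between groups near 3.7, while the other 2 ratios are lower in all Sora-Treg libraries.

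The 3 symbol matches that were set aside were all lower. Psmc3ip, a partner of the meiotic recombinases, had 6.81, 6.10 and 6.79 CPM against 3.69, 3.04 and 3.32 CPM. It had the largest fold of any tested member (log2 fold change -0.97 ± 0.14, SE, adjusted p = 3.04e-06). It is the only matched row that passed the DEG limit in some fits, at -1.09 with library totals. Its annotation overlaps Mlx on the opposite strand, and Mlx had 794% of its level, with a log2 fold change of -0.17. Whether the count of Psmc3ip holds reads of Mlx was not tested. Psme3ip1 had a log2 fold change of -0.20 ± 0.049 (SE, adjusted p = 0.00143). In all, 12 of the 49 members found in the GENCODE M21 annotation (GRCm38) overlap another counted gene. In 6, that gene had over 10% of the member's level. Whether this annotation matches the one used for counting is not known.

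Sequences before the transcription start were read for motifs known from proteasome genes, since the transcription factor Nfe2l1 binds an antioxidant type of element before many of them. RefSeq (GRCm38.p6) gave a window of 250 bases before to 50 after the start for 42 of the 50 members and for 27025 genes in all, and both strands were searched. The element TGACNNNGC was in 6 of the 42 windows (14.3%) and in 14.0% of all windows. Its 6 holders were Psmb5, Psmb6, Psmc6, Psmd12, Psmd9 and Psme4. None of them was called lower, against 26 of the 36 other members with a window, and the median log2 fold changes were -0.087 and -0.23. This count depends on the scaling, since all 6 were called lower with library totals, and Psmb5, Psmb6, Psmd12 and Psmd9 with upper quartile scaling. These members were looked up after their values were known, so this is a description without a test. The share called lower among all genes that hold the element was not computed, so the counts are no result about the element. Of the 6, Psmc6, Psmd12 and Psme4 also hold the ETS motif below. The 36 others include the symbol matches Psmc3ip, Psme2b and Psme3ip1, which were all lower. No window was available for Psma8, Psmb1, Psmb2, Psmb7, Psmc3, Psmd3, Psmd7 and Psmg2.

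Shown here are the 250 bases before the start of 5 members, with motif matches in capitals. The standard subunits Psmb5 (chr14:54617996-54618245, minus strand) and Psmb6 (chr11:70525107-70525356, plus strand) hold TGACNNNGC and were not called, the immunoproteasome subunits Psmb8 (chr17:34197945-34198194, plus strand) and Psmb9 (chr17:34187331-34187580, minus strand) are neighbours in the MHC, the first not called and the second lower, and Psme3 (chr11:101315963-101316212, plus strand) had the smallest adjusted p of all members. Capitals mark TGACNNNGC in the first pair, TTCNNNGAA in Psmb8, CCAAT on the reverse strand in Psmb9, and CCGGAAG and CCAAT on the reverse strand in Psme3.
Psmb5: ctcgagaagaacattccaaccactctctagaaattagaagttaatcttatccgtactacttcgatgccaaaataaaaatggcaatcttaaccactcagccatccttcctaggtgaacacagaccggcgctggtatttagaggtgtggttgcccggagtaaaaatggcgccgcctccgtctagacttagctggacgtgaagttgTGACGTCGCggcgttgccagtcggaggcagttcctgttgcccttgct
Psmb6: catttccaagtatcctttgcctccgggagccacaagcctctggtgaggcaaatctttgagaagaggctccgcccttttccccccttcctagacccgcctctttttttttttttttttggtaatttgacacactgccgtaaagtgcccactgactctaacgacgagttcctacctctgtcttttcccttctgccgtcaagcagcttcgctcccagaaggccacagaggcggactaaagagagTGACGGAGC
Psmb8: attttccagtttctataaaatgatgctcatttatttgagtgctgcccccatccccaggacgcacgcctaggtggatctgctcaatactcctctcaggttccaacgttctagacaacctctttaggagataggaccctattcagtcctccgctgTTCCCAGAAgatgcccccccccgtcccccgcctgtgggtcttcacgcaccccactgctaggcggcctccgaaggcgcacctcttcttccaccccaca
Psmb9: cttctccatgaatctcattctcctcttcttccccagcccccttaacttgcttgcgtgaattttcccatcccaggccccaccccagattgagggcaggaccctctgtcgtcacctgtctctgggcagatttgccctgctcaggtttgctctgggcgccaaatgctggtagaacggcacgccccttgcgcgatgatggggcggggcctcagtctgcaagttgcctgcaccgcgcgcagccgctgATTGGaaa
Psme3: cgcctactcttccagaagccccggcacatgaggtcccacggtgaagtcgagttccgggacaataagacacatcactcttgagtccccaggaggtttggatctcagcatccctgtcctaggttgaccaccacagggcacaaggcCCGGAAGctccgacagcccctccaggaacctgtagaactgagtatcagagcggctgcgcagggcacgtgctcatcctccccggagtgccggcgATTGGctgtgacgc

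The ETS motif CCGGAAG, common in promoters of housekeeping genes, was in 16 of the 42 member windows (38.1%) and in 9.93% of all windows. Among holders 10 of 16 were lower, and among the others 16 of 26. CCAAT was in 15 (35.7%, against 41.1% of all windows), of which 12 were lower, and 14 of the 27 others were lower. Holders of either motif include the symbol matches Psmc3ip and Psme3ip1, and the others include Psme2b, all of them lower. The share lower among all genes that hold these motifs was not computed, and the number of members called lower moves with the scaling. The gamma-activated site TTCNNNGAA was in 3 member windows (7.14%, all windows 9.55%), Psmb8, Psmd2 and Psmg1. A shortened interferon response element, GAAANNGAA, was in 7 (16.7%, all windows 9.76%), among them Psme1, and the YY1 motif AAGATGGC in 3 (7.14%, all windows 3.19%). A match says only that these letters are present in the window.

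Other genes of the pathway were counted the same way. Of 52 listed genes with a row, 51 were tested, of which 16 were higher, 15 lower and 20 not called, with a median log2 fold change of 0.0013. These shares are near those over all tested genes, 29.7% higher and 29.9% lower, so the counts are no result about the list, and those of its smaller groups are read against the same shares. Further parts of the particle outside the symbol rule, the ubiquitin receptor Adrm1, the small 19S subunit Sem1 and the core maturation factor Pomp, were not called (-0.081 ± 0.045, 0.018 ± 0.044 and -0.015 ± 0.044 on the log2 scale, SE, adjusted p = 0.127, 0.751 and 0.793).

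Of 14 shuttles, deubiquitinases and regulators bound to the proteasome, 6 were lower and 2 higher. Ublcp1, a phosphatase of the 19S regulator, had 7.77, 8.49 and 9.93 CPM against 4.61, 5.62 and 6.01 CPM (log2 fold change -0.68 ± 0.13, SE, adjusted p = 8.21e-05). Ecpas, an adaptor that binds the 19S regulator to the core, moved the other way, from 167, 162 and 173 CPM to 190.1, 208 and 198 CPM (0.25 ± 0.036, SE, adjusted p = 2.89e-06). No library of one group reached the other in either gene. Among 6 genes for ubiquitin and its activation, Uba1, the main activating enzyme, was higher (0.28 ± 0.023, SE, adjusted p = 3.59e-10), and Rps27a, a fusion of ubiquitin with a ribosomal protein, was lower (-0.11 ± 0.026, SE, adjusted p = 0.00132). Ubiquitin genes share coding repeats, so their counts are uncertain.

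Of 8 tested regulators of subunit transcription, 3 were higher, 3 lower and 2 not called. Nfe2l1, the factor that raises subunit transcription when the proteasome is impaired, had 239.6, 237 and 229 CPM against 189, 190.1 and 191 CPM. The groups lay far apart and the level was lower (-0.31 ± 0.030, SE, adjusted p = 6.15e-09). Vcp, the ATPase that pulls Nfe2l1 from the membrane of the endoplasmic reticulum, was lower too, from 383, 379 and 387 CPM to 304, 300.2 and 317 CPM (-0.32 ± 0.028, SE, adjusted p = 1.45e-09). Maff, a small MAF partner of such factors, was higher (0.31 ± 0.053, SE, adjusted p = 2.52e-05). For nuclear import of proteasomes, Ipo9 was lower (-0.30 ± 0.036, SE, adjusted p = 1.90e-07) and Akirin2 was not called (-0.13 ± 0.056, SE, adjusted p = 0.0568).

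Genes downstream and upstream of the immunoproteasome came next. Of 8 peptide loading genes, 4 were higher and 2 lower. The class I heavy chains H2-D1 and H2-K1 and their light chain B2m were higher (0.45 ± 0.024, 0.25 ± 0.022 and 0.25 ± 0.023 on the log2 scale, SE, adjusted p = 1.66e-13, 1.73e-09 and 3.32e-09), also with library totals, while the transporter genes Tap1 and Tap2 were the 2 that were lower (Tap2 -0.19 ± 0.032, SE, adjusted p = 1.62e-05). H2-D1 and H2-K1 share long stretches of sequence, so the division of reads between them is uncertain.

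Of 10 genes of the IFN-γ response, 5 were higher and 2 lower. The receptor chain Ifngr1 had 127, 137 and 130.3 CPM in control libraries against 363, 360.5 and 361 CPM with Sora, the single DEG among the listed pathway genes (1.46 ± 0.032, SE, adjusted p = 1.29e-20). Irf8, a transcription factor that IFN-γ induces, was higher as well (0.97 ± 0.028, SE, adjusted p = 2.01e-18). Nlrc5, which drives transcription of MHC class I and immunoproteasome genes, was lower, from 282, 282 and 281 CPM to 236, 241 and 245 CPM (-0.23 ± 0.028, SE, adjusted p = 3.16e-07). Its libraries were close within each group and did not overlap.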

How the data were processed

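RNA was sequenced from 3 ctrl-Treg and 3 Sora-Treg libraries, grouped and numbered by the sample labels. A table of raw counts by symbol and a table of FPKM values, both over 22939 genes, were deposited by the authors. The submitters' processing notes list fastp, HISAT2, HTSeq, R 3.2.0, DESeq2 and GRCm39, whereas the methods of the study name Bowtie2 and GRCm38, so the aligner and build are uncertain. The annotation release and the use of strand in counting are not given in the sources used here. Dividing each deposited count by its library total and its FPKM gave a single length for every gene (relative spread at most 1.64e-06), so FPKM is no separate measurement.

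In R 4.3.3, edgeR 4.0.16 was run on the counts with its quasi-likelihood test, TMM scaling, filterByExpr, no covariate and Benjamini-Hochberg adjustment over 13463 genes. CPM values are TMM-scaled, and standard errors (SE) of log2 fold changes are those that the F statistics imply. Ratios of FPKM were tested by two-sided exact permutation with scipy 1.17.1. Replicates of a group differed by more than sampling noise (chi-square per degree of freedom 3.36 to 5.91). No pairing by replicate number was seen, as deviations of same-numbered libraries correlated at -0.044, 0.059 and 0.030. With noise in single genes and 3 libraries a group, such values cannot exclude a shared source.

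Alternatives were RLE, upper quartile and library-total scaling, filters that keep genes with 1 count or more in some library or with 1 CPM or more in 3 libraries, robust fitting, a replicate block, DESeq2 1.42.0, limma 3.58.1 on log2(FPKM + 1), with an FPKM filter of 1 or none, or on log2(FPKM + 0.1), and each library left out. Leaving out both control replicates 1 and 2 was added after the data were seen. Scripts were tested on simulated data. Members and gene lists were chosen with earlier results of these data known. Named singly were the immunoproteasome genes, the standard active-site subunits, the activators and inhibitor outside the immunoproteasome, symbol matches, the highest and lowest member of each structural class, members not called or changing direction, and the 3 pathway genes of smallest adjusted p in each list, a few of which are not reported here. Further genes (Psma3, Psma4, Psmb2, Psmb4, the other ATPases, Psmd1, Psmd7, Psmd11, Psmd13, Psmg3, Psmg4 and Tap2, and genes that overlap members) were picked with their values in view. Promoter windows are from RefSeq on GRCm38.p6. Overlaps between genes are from GENCODE M21 on GRCm38, and the annotation used for counting may differ. The limit of 3 counts covers counting error only, while standard errors and confidence intervals are from the fit and include the spread between libraries.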

Additional observations from a re-analysis of the deposited data

How the results depend on the processing

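No alternative left fewer than 27 members lower, the count without both control replicates 1 and 2, where Psma4, Psmb2, Psmb4 and Psmd11 were not called. It was 44 to 46 with library totals or FPKM values, 39 with upper quartile scaling, 35 with the loosest count filter, 31 to 33 with any library left out, and 32 lower and 1 higher with the replicate block, against 31 and 1. The share of all tested genes lower moved as well, to 41.7% with library totals, 46.5%, 46.4% and 21.7% in the fits of FPKM values, 33.6% with upper quartile scaling, 18.7% with the loosest filter and 20.8% without both control replicates, against 29.9%. The number higher was 0 with library totals and in all 3 fits of FPKM values, and 1 to 2 with a library left out. Psmc3ip brought the DEGs from 0 to 1 with upper quartile scaling, library totals, log2(FPKM + 0.1) and without both control replicates, and the range was 0 to 1 with a library left out. The median of standard members was -0.20 with upper quartile scaling, -0.28 with library totals and -0.27, -0.28 and -0.27 with log2(FPKM + 1), log2(FPKM + 0.1) and log2(FPKM + 1) without a filter. These alternatives divide by totals or shift the centre of all genes by construction.

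Listed pathway genes lower rose from 15 to 29 with library totals and to 27, 27 and 23 in the fits of FPKM values, of which the last left 9 higher. Psmb8 passed the threshold at -0.099 with upper quartile scaling, -0.18 with library totals, -0.076 with the loosest filter, -0.062 with robust fitting, and -0.18 in each fit of FPKM values. Psme1 passed at -0.14 with library totals and in each fit of FPKM values. Psmb9, Psmb10 and Psme2 stayed lower and called in every alternative. The 3 ratios kept their direction, but the exact permutation test used for them cannot pass the threshold.

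Small changes reversed. Psmd4 was at -0.0013 with upper quartile scaling, -0.079 with library totals and -0.078, -0.079 and -0.078 in the fits of FPKM values. Psmd8 was at -0.018, -0.096, -0.095, -0.096 and -0.095 in that order, and -0.016 without both control replicates. Sem1 was at -0.020, -0.098, -0.095, -0.096 and -0.095. Psmd10 was at -0.018 with library totals and -0.021, -0.022 and -0.021 in the fits of FPKM values. With a library left out Psme4 ranged from -0.076 to 0.034, Psmd2 from -0.055 to 0.0039, Pomp from -0.050 to 0.023 and Sem1 from -0.012 to 0.038. Pomp was at 0.060 without both control replicates. Of the single genes named outside the immunoproteasome, 24 kept direction and call under every alternative and 23 did not.

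Depth did not limit the members other than Psma8. With 3 libraries a group, exact tests of the ratios cannot go below 0.1, or 0.2 with a library left out. The FPKM table shares the counts' errors, and whether libraries are separate cultures is not known.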
